A study of Mus musculus with 18 samples.

Results

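The 78 genes described here encode proteins of the mitochondrial ribosome. They are the genes of the table whose symbol is Mrpl or Mrps followed by a number and at most 1 letter, 78 of 16909 genes in all, chosen by name and not by measured values. All 78 were among the 12465 genes that passed the filter on low counts, the lowest count of any of them in any library being 32. By current structures 51 belong to the large subunit and 26 to the small subunit, while Mrps36 carries the name but is a component of the 2-oxoglutarate dehydrogenase complex. Mrps18a and Mrps30 are named for the small subunit and sit in the large one.

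The cells were bone marrow macrophages of the mouse, from which poly(A) RNA was sequenced in 18 libraries. The UVABs and STSABs groups (n = 5 each) were given apoptotic bodies, the membrane-enclosed fragments of dying cells, from cells that the labels call hucMSC, with apoptosis induced by UV in the first and by STS in the other. The LPS group (n = 5) was the positive control for inflammation, lipopolysaccharide being a bacterial cell wall component that macrophages sense through Toll-like receptor 4, and the Con group (n = 3) was the mock group. The labels used here give no strain, age, dose or time. They do not say whether the apoptotic body (AB) groups also received LPS, or whether replicates were separate cultures, so the p-values cover library-to-library spread that could be technical.

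Library totals lay between 17588357 and 18675283 estimated counts. All 10 macrophage markers were present in every group, summing to 10317 to 11474 CPM (counts scaled to a fixed library total) in UVABs, 9557 to 10862 in STSABs, 11638 to 12876 in LPS and 17337 to 18561 in Con. Lyz2 gave most of this sum, on average 6872 CPM in UVABs, 6501 in STSABs, 8614 in LPS and 12094 in Con. The markers did not move together, as Cd14, Fcgr1 and Mertk were higher in LPS than in Con and the others lower. Lymphocyte markers summed to at most 3.75 CPM and stromal markers to at most 8.93 CPM in any library.

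The mitochondrial ribosome translates the proteins that mitochondrial DNA encodes, which are membrane subunits of oxidative phosphorylation. Its RNA is transcribed in the mitochondrion, whereas its proteins are encoded in the nucleus, made in the cytosol and imported. Some of these proteins descend from bacterial ribosomal proteins and others are specific to mitochondria. In macrophages activated by LPS, energy production is known to shift from respiration towards glycolysis. Mitochondrially encoded genes are not analysed here.

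Promoters are shown first because genes for mitochondrial proteins are known to share binding motifs of the nuclear factors NRF1, GABP (an ETS factor) and YY1. RefSeq promoter sequences (build GRCm38.p6, 250 bases before to 50 after the start) matched 69 of the 78 genes. The ETS motif CCGGAAG, searched on both strands, was in 26 of the 69 (37.7%) and in 9.93% of the promoters of all 27025 genes. The NRF1 motif was in 13 (18.8%, against 5.19%) and the YY1 motif AAGATGGCG in 8 (11.6%, against 1.64%). The E-box CACGTG, bound by MYC among others, was in 5 (7.25%, against 8.09%). At least 1 of the first 3 motifs was in 41 of 69 (59.4%), against 15.1% of all promoters. The median GC content was 58.0% in these genes and 52.8% in all. A match describes letters and not a bound site.

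The 100 bases before the start of 7 genes whose values follow are printed 5′ to 3′ with the motif in capitals. These include genes that were lower (Mrpl3, Mrps22, Mrpl12) and higher (Mrps16, Mrpl43, Mrpl52) in the AB groups than in LPS, and Mrpl27, the most increased in LPS against Con. The capitals mark the ETS motif, on either strand, except in Mrpl12, where they mark the NRF1 motif.
Mrpl3 (chr9:105053168-105053267, plus strand): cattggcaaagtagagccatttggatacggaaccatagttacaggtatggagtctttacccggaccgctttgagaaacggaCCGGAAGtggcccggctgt
Mrps22 (chr9:98601680-98601779, minus strand): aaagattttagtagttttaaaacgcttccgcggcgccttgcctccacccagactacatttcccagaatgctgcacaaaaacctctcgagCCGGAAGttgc
Mrpl12 (chr11:120484537-120484636, plus strand): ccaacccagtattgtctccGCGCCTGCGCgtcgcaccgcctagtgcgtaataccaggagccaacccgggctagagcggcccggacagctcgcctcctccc
Mrps16 (chr14:20393491-20393590, minus strand): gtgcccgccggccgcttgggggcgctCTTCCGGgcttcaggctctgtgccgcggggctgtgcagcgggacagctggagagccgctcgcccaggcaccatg
Mrpl43 (chr19:45006443-45006542, minus strand): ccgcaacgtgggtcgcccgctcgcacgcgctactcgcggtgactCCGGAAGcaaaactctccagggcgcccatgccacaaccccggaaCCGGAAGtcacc
Mrpl52 (chr14:54426809-54426908, plus strand): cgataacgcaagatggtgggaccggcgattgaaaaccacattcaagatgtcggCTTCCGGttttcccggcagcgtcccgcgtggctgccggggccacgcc
Mrpl27 (chr11:94653691-94653790, plus strand): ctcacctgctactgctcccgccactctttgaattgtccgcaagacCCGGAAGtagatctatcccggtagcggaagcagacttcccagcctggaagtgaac
These promoters were chosen for holding a motif and do not stand for the others. Of the genes with a promoter, the ETS motif was in 8 of 30 that fell, 3 of 6 that rose and 15 of 33 that did not pass in UVABs against LPS, and in 9 of 32, 3 of 6 and 14 of 31 in STSABs against LPS. Mrpl43 held 2 copies of it.

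As a group, the 78 genes took up a smaller share of the library in the 3 treated groups than in mock cells. They made up 0.119% ± 0.004 of all counts in UVABs, 0.119% ± 0.004 in STSABs, 0.125% ± 0.003 in LPS and 0.227% ± 0.008 in Con (SD, n = 5, 5, 5 and 3). The typical gene fell too on this scale. With library totals, the median log2 fold change of all genes tested against Con was -0.78 in LPS and -0.74 in each AB group. The Mrp median minus that of all genes was -0.15 in LPS, -0.26 in UVABs and -0.29 in STSABs. Most of the drop in share from Con was therefore not particular to Mrp genes. Set against cytosolic ribosomal protein genes, whose products build the ribosome of the cytosol, the group means stood in the same order, with steps of other sizes. There were 2.30 to 2.50 Mrp counts per 100 cytosolic ribosomal protein counts in UVABs and 2.28 to 2.53 in STSABs, against 3.06 to 3.23 in LPS and 3.32 to 3.53 in Con. The AB libraries lay below every LPS library on this scale, and the LPS libraries below every Con library. Cytosolic ribosomal protein genes themselves averaged 5.02% of counts in UVABs, 5.03% in STSABs, 3.98% in LPS and 6.64% in Con. Mrp shares of all counts overlapped between AB and LPS libraries, with 0.114% to 0.125% in each AB group and 0.123% to 0.131% in LPS. Small subunit genes had 0.405 ± 0.009 counts per large subunit count in UVABs, 0.403 ± 0.010 in STSABs, 0.417 ± 0.007 in LPS and 0.447 ± 0.011 in Con (SD). The ranges of UVABs (0.392 to 0.415), STSABs (0.393 to 0.419) and LPS (0.406 to 0.426) overlapped, and those of Con (0.437 to 0.458) lay above them.

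**Figure D1:**
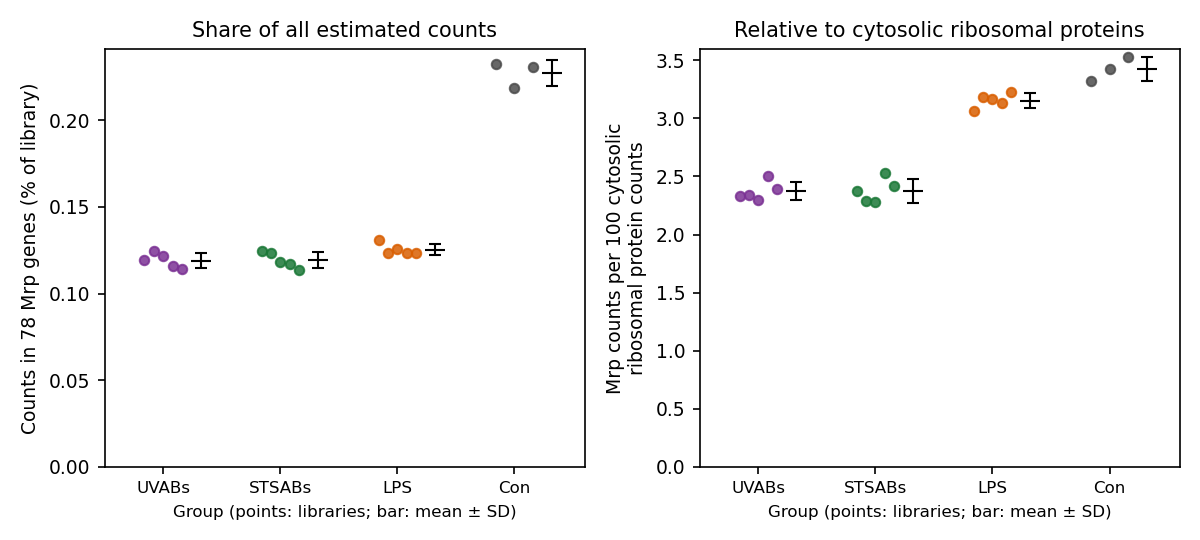
Share of all estimated counts in the 78 Mrp genes (left, % of the library) and Mrp counts per 100 counts in cytosolic ribosomal protein genes (right), with 1 point per library and the mean ± SD beside the points. The share was 0.119% in both AB groups, 0.125% in LPS and 0.227% in Con, and the right panel steps from 2.28 to 2.53 in the AB groups to 3.06 to 3.23 in LPS. On the left, AB and LPS libraries overlap. With library totals, the median log2 fold change of all genes tested was also negative against Con, -0.78 in LPS and -0.74 in each AB group. Cytosolic ribosomal protein genes, the denominator on the right, averaged 5.02% of counts in UVABs, 5.03% in STSABs and 3.98% in LPS.

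Levels of single genes are given below as CPM scaled by the TMM method, which lines libraries up on the bulk of their genes. Its factors averaged 0.928 in UVABs, 0.932 in STSABs, 0.902 in LPS and 1.51 in Con, so that Con stands apart from the other groups and comparisons with Con depend on the scaling. Per kilobase of exon, the median Mrp gene had 6.13 TMM-scaled CPM in UVABs, 5.77 in STSABs, 6.50 in LPS and 7.74 in Con. Mrps21, the counterpart of bacterial S21, had the highest level per kilobase in every group, with 41.5 in UVABs, 40.6 in STSABs, 45.1 in LPS and 33.6 in Con. The lowest was Mrps35 in UVABs (0.48), STSABs (0.46) and LPS (0.60), and Mrpl47 in Con (1.19). Lengths are those of all annotated exons together, 739 bases in Mrps21 and 8631 in Mrps35, which the expressed transcript need not contain. These ranks therefore depend on the annotation. Mrpl27 ranked 2 of 78 in UVABs, STSABs and LPS and 17 in Con.

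The first question is how AB-treated macrophages differed from the inflammation control. Most Mrp genes that changed were lower in the AB groups. Against LPS, 35 Mrp genes fell and 6 rose in UVABs, and 38 fell and 6 rose in STSABs (edgeR's quasi-likelihood test, Benjamini-Hochberg adjusted p under 0.05 over all 12465 genes). Among all genes 28.8% fell and 28.6% rose in UVABs (57.4% called), and 29.0% fell and 28.4% rose in STSABs (57.4% called). The median log2 fold change of the Mrp genes was -0.18 in both comparisons, beside 0.00 (UVABs) and -0.01 (STSABs) for all genes tested. The falls were modest, between -0.87 and -0.18 in UVABs and between -0.95 and -0.19 in STSABs. Both comparisons use the same LPS libraries and are not independent of each other. Here and in later comparisons, genes named for the size of their change were picked among those without overlapping libraries. Lack of overlap in such genes is therefore no separate result.

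Cytosolic ribosomal protein genes moved the other way. Of 86 tested, 77 rose and 1 fell in UVABs against LPS, with a median log2 fold change of 0.29, and 78 rose and 1 fell in STSABs, with a median of 0.28. Neutrophil markers also moved with these groups. Of 10, 9 rose in UVABs and 10 in STSABs, and their sum was 2978 to 3964 CPM in UVABs and 3125 to 4471 CPM in STSABs, against 1705 to 2316 CPM in LPS and 1836 to 2301 CPM in Con, led by Ngp, S100a9 and S100a8 with none of the 10 at 0. Dendritic cell markers summed to 2571 to 3121 CPM in UVABs, 2612 to 3147 in STSABs, 2225 to 2467 in LPS and 320 to 352 in Con, of which Ccr7 gave on average 2796 CPM in UVABs, 2765 in STSABs, 2247 in LPS and 214 in Con. The part of these cell type markers in the Mrp results was not tested.

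**Figure D2:**
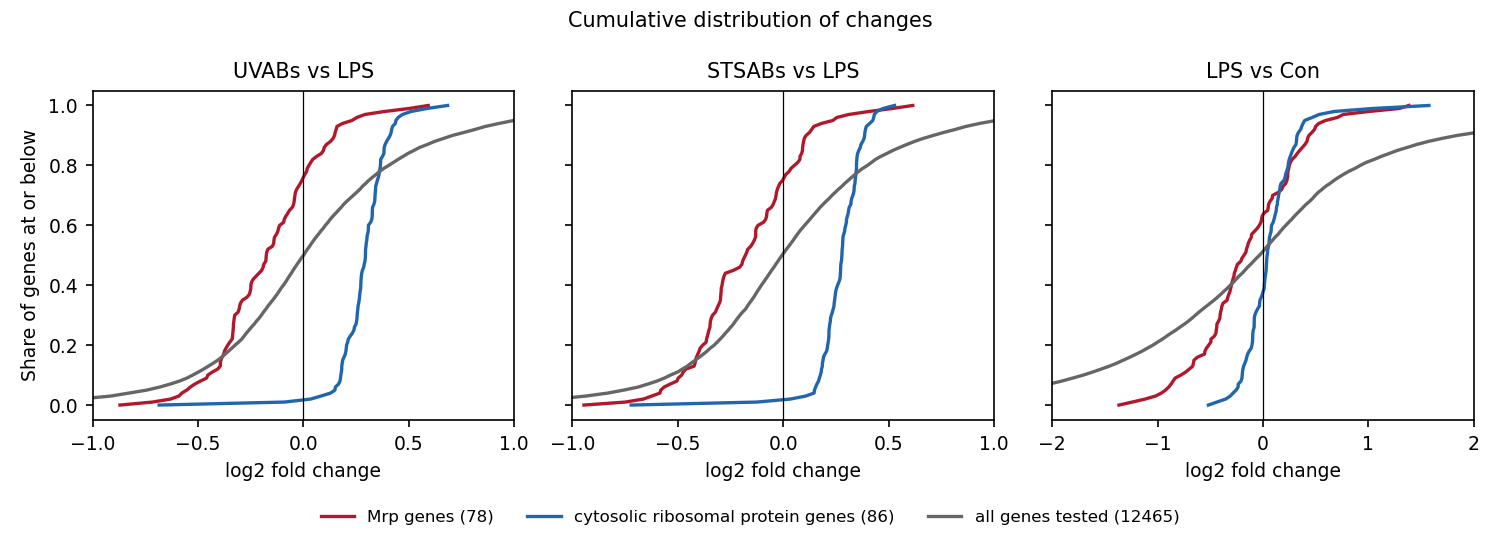
Cumulative share of genes at or below each log2 fold change, for the 78 Mrp genes, the 86 cytosolic ribosomal protein genes and all 12465 genes tested, in 3 comparisons (quantiles in steps of 1%, curves beyond the axis not drawn). The median was -0.18 for Mrp genes and 0.29 and 0.28 for cytosolic ribosomal protein genes in UVABs and STSABs against LPS, and -0.18 and 0.04 in LPS against Con.

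Counts by subunit, site and origin follow, beside all genes, of which 28.8% fell and 28.6% rose in UVABs, and 29.0% and 28.4% in STSABs. None of these classes was tested against those shares. In the small subunit, 10 of 26 genes fell and 1 rose in UVABs, and 12 fell and 1 rose in STSABs. Mrps18b, 1 of the relatives of bacterial S18 and specific to mitochondria, had the largest fall of all Mrp genes. Its level was 8.37, 7.01, 6.35, 6.06 and 8.22 TMM-scaled CPM in the UVABs libraries and 8.34, 6.38, 6.65, 6.61 and 6.17 in the STSABs libraries, against 14.8, 12.97, 12.1, 12.4 and 13.4 in LPS. Every AB library lay below every LPS library. The log2 fold change was -0.87 ± 0.10 (SE, adjusted p = 1.84e-07, edgeR) in UVABs and -0.95 ± 0.10 (adjusted p = 6.12e-08) in STSABs. In Con it stood at 22.95, 20.04 and 19.7, above the LPS libraries.

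Mrps22, a small subunit protein with no bacterial counterpart, had 7.34, 8.08, 6.71, 6.87 and 6.46 TMM-scaled CPM in UVABs and 6.43, 7.23, 7.67, 7.54 and 7.17 in STSABs, against 11.7, 10.1, 11.2, 9.37 and 10.7 in LPS. Its AB and LPS libraries did not overlap. Its log2 fold change was -0.58 ± 0.08 in UVABs (adjusted p = 5.39e-06, edgeR) and -0.56 ± 0.08 in STSABs (adjusted p = 8.7e-06). Its promoter above holds an ETS motif 11 to 5 bases before the start. Mrps5, the counterpart of bacterial S5 at the site where mRNA enters, had 8.73, 9.70, 9.50, 7.80 and 8.40 in UVABs and 10.2, 9.79, 8.62, 9.06 and 8.05 in STSABs, against 13.5, 13.2, 13.8, 11.7 and 12.4 in LPS. No AB library reached the lowest LPS library, and the log2 fold changes were -0.55 ± 0.08 and -0.50 ± 0.08 (edgeR, adjusted p = 5.17e-06 in UVABs and 1.65e-05 in STSABs). Mrps31, also specific to mitochondria, had 4.91, 5.15, 4.34, 5.24 and 5.87 in UVABs and 6.14, 5.41, 4.67, 5.79 and 5.52 in STSABs, against 7.24, 6.18, 7.66, 6.72 and 7.24 in LPS. Its highest AB library lay below the lowest LPS library, and its log2 fold change was -0.46 ± 0.10 in UVABs and -0.35 ± 0.10 in STSABs.

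Mrps16, the counterpart of bacterial S16 that helps the small subunit assemble, was the 1 small subunit gene that rose. Its libraries had 19.5, 22.8, 21.1, 17.8 and 17.1 TMM-scaled CPM in UVABs and 19.2, 22.2, 18.7, 19.2 and 19.9 in STSABs, against 14.4, 12.5, 14.6, 14.3 and 14.9 in LPS. All AB libraries were above all LPS libraries, and the log2 fold change was 0.47 ± 0.08 (adjusted p = 3.2e-05, edgeR) in UVABs and 0.49 ± 0.08 (adjusted p = 2.17e-05) in STSABs. The Con libraries, at 19.5, 17.5 and 20.4, stood at the level of the AB libraries with TMM. Under 2 of the 4 scalings named below, both AB groups were called lower than Con. Mrps12, the counterpart of the S12 protein of the decoding centre, did not pass the test, with log2 fold changes of -0.12 ± 0.09 in UVABs and -0.13 ± 0.09 in STSABs.

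In the large subunit, 25 of 51 genes fell and 5 rose in UVABs, and 26 fell and 5 rose in STSABs. Mrpl3, a core protein whose bacterial counterpart reaches towards the peptidyl transferase centre, had the smallest adjusted p of the Mrp genes in both comparisons. It had 26.9, 25.99, 27.3, 27.4 and 24.5 TMM-scaled CPM in UVABs and 26.7, 24.98, 27.3, 26.96 and 27.7 in STSABs, against 41.4, 40.05, 40.3, 38.7 and 39.2 in LPS. The groups were far apart relative to their spread, and the log2 fold change was -0.60 ± 0.05 (adjusted p = 8.67e-10, edgeR) in UVABs and -0.58 ± 0.05 (adjusted p = 1.25e-09) in STSABs. The Con libraries, at 31.9, 31.2 and 32.03, lay between the AB and the LPS libraries with this scaling. Of the 4 core genes listed (Mrpl2, Mrpl3, Mrpl4 and Mrpl16), 2 fell and none rose in either comparison.

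Mrpl50, specific to mitochondria, had 6.24, 5.93, 7.07, 5.65 and 5.52 TMM-scaled CPM in UVABs and 6.02, 6.32, 6.89, 5.15 and 5.64 in STSABs, against 12.9, 9.15, 8.88, 8.28 and 9.21 in LPS. Its LPS libraries were all above the AB libraries, although replicate 1 of LPS stood well above the other LPS libraries. The log2 fold change was -0.67 ± 0.11 in UVABs and -0.69 ± 0.12 in STSABs (edgeR, adjusted p = 3.79e-05 and 2.72e-05). Mrpl36, the counterpart of the small bacterial protein L36, had 9.94, 12.2, 11.2, 11.6 and 9.75 in UVABs and 8.92, 10.5, 10.3, 11.5 and 10.1 in STSABs, against 17.2, 14.1, 16.9, 15.4 and 13.3 in LPS. Its libraries did not overlap between the AB groups and LPS, and its log2 fold change was -0.49 ± 0.09 in UVABs and -0.59 ± 0.09 in STSABs. Mrpl21, the counterpart of bacterial L21, had 13.4, 14.4, 11.3, 11.1 and 11.2 in UVABs and 13.3, 14.7, 11.5, 11.5 and 11.5 in STSABs, against 18.7, 18.5, 17.95, 16.2 and 17.4 in LPS. It too was lower in every AB library, with log2 fold changes of -0.53 ± 0.09 and -0.51 ± 0.09. Mrpl15 had 13.6, 12.6, 14.2, 15.1 and 13.8 in UVABs and 15.1, 14.2, 14.1, 13.2 and 11.6 in STSABs, against 20.5, 18.8, 17.3, 18.4 and 19.8 in LPS. This counterpart of bacterial L15 did not overlap between the groups and changed by -0.45 ± 0.08 and -0.47 ± 0.08 (log2).

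At the stalk, where translation factors bind, 3 of 5 genes fell and none rose in each comparison. Mrpl12, the stalk protein itself, which is also known to bind the mitochondrial RNA polymerase, had 11.1, 13.3, 12.4, 10.9 and 11.5 TMM-scaled CPM in UVABs and 11.9, 11.9, 10.96, 13.4 and 8.52 in STSABs, against 15.1, 17.4, 13.6, 14.6 and 13.9 in LPS. The AB libraries lay below the LPS libraries, with log2 fold changes of -0.34 ± 0.10 (adjusted p = 0.00508, edgeR) in UVABs and -0.40 ± 0.10 (adjusted p = 0.0014) in STSABs. At the central protuberance none rose, and 2 of 8 genes fell in UVABs and 4 of 8 in STSABs (all genes: 28.8% and 29.0%). One of the 8, Mrpl58, a peptidyl-tRNA hydrolase that can release stalled chains, did not pass, with -0.04 ± 0.11 and -0.08 ± 0.11 (log2).

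Around the exit of the polypeptide tunnel the calls went both ways, with 1 of 5 genes higher and 1 lower in UVABs, and 2 higher and 1 lower in STSABs. Falls and rises each took in 28.4% to 29.0% of all genes. Mrpl24, a protein at the tunnel exit, had 44.5, 48.4, 43.4, 41.2 and 43.002 TMM-scaled CPM in UVABs and 47.7, 47.9, 42.2, 43.8 and 43.2 in STSABs, against 36.9, 35.1, 35.2, 34.3 and 36.5 in LPS. It was higher in every AB library, and its log2 fold change was 0.31 ± 0.05 (adjusted p = 3.38e-05, edgeR) in UVABs and 0.34 ± 0.05 (adjusted p = 1.11e-05) in STSABs. Mrpl45, which anchors the large subunit to the inner membrane, had 28.4, 29.2, 28.7, 26.9 and 27.8 in UVABs and 33.7, 29.6, 28.6, 27.3 and 27.3 in STSABs, against 28.1, 24.5, 26.6, 26.95 and 25.8 in LPS. Its groups overlapped, and its log2 fold change of 0.15 ± 0.06 in STSABs (edgeR, adjusted p = 0.0387) lost the call without any 1 of LPS replicates 2, 3 and 5 and STSABs replicates 1 and 2, with 0.09 to 0.15. In UVABs it was 0.09 ± 0.06 (adjusted p = 0.192).

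Mrpl14, a protein of the face between the subunits that in human cells binds the assembly factor MALSU1, had the largest rise. Its libraries had 25.5, 25.99, 25.7, 20.8 and 23.6 TMM-scaled CPM in UVABs and 26.5, 27.1, 23.7, 22.2 and 23.97 in STSABs, against 16.6, 14.8, 18.4, 15.5 and 15.3 in LPS. No library overlapped, and the log2 fold change was 0.59 ± 0.09 (adjusted p = 8.89e-06, edgeR) in UVABs and 0.61 ± 0.09 (adjusted p = 5.26e-06) in STSABs. The Con libraries, at 10.4, 11.2 and 14.5 with TMM, were lower than all LPS libraries. Of the 4 scalings named below, LPS against Con was called higher under 2 and lower under 1. Mrpl14 shares 106 exon bases with Tmem63b on the opposite strand, which rose in the same comparisons, by 0.33 in UVABs and 0.38 in STSABs (log2), and the part of shared reads was not tested.

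The other genes that rose changed less. Mrpl52, specific to mitochondria, had 25.3, 29.4, 24.4, 21.3 and 22.6 TMM-scaled CPM in UVABs and 25.03, 29.1, 26.7, 21.9 and 20.4 in STSABs, against 20.6, 20.5, 22.4, 20.2 and 19.1 in LPS. The groups overlapped, and the log2 fold changes of 0.26 ± 0.09 and 0.26 ± 0.09 (edgeR, adjusted p = 0.0224 in UVABs and 0.0221 in STSABs) lost the call without LPS replicate 5 (0.23 in each), without UVABs replicate 2 (0.18 in UVABs) and without STSABs replicate 2 or 3 (0.19 and 0.23 in STSABs). Mrpl43 had 31.1, 35.03, 33.1, 29.6 and 33.3 in UVABs and 35.6, 34.2, 32.9, 30.2 and 29.8 in STSABs, against 25.8, 29.7, 30.02, 27.8 and 25.3 in LPS. The AB and LPS ranges overlapped slightly, its log2 fold change was 0.23 ± 0.07 in UVABs and 0.23 ± 0.07 in STSABs, and the call in UVABs was lost with replicates 1 to 3 only (0.22). Mrpl39, a gene whose counts were not whole numbers in all 18 libraries, had 37.3, 34.01, 38.1, 34.6 and 35.4 in UVABs, against 34.4, 33.6, 31.4, 31.2 and 32.8 in LPS. The log2 fold change of 0.13 ± 0.06 (edgeR, adjusted p = 0.0428) lost the call in 9 of the 18 fits that each left out 1 library (0.11 to 0.14), and in STSABs it was 0.12 ± 0.06 (adjusted p = 0.0601).

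Called genes were found among both origins. Of 46 genes with a bacterial counterpart, 23 fell and 3 rose in UVABs and 23 fell and 3 rose in STSABs. Of 31 genes specific to mitochondria, 12 fell and 3 rose in UVABs and 15 fell and 3 rose in STSABs. Among all genes 28.8% fell and 28.6% rose in UVABs, and 29.0% and 28.4% in STSABs. Neither origin was tested against these shares. The libraries did not overlap for 27 Mrp genes that were lower and 3 that were higher in UVABs than in LPS, where 21.9% and 20.4% of all genes did so, and for 29 lower and 3 higher in STSABs, where 21.8% and 20.7% did so. All 6 rises and 34 of the 35 falls in UVABs (all but that of Mrpl33), and all 6 rises and 38 falls in STSABs, were called under each of 4 scalings (TMM, DESeq2 size factors, upper-quartile factors and library totals).

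**Figure D3:**
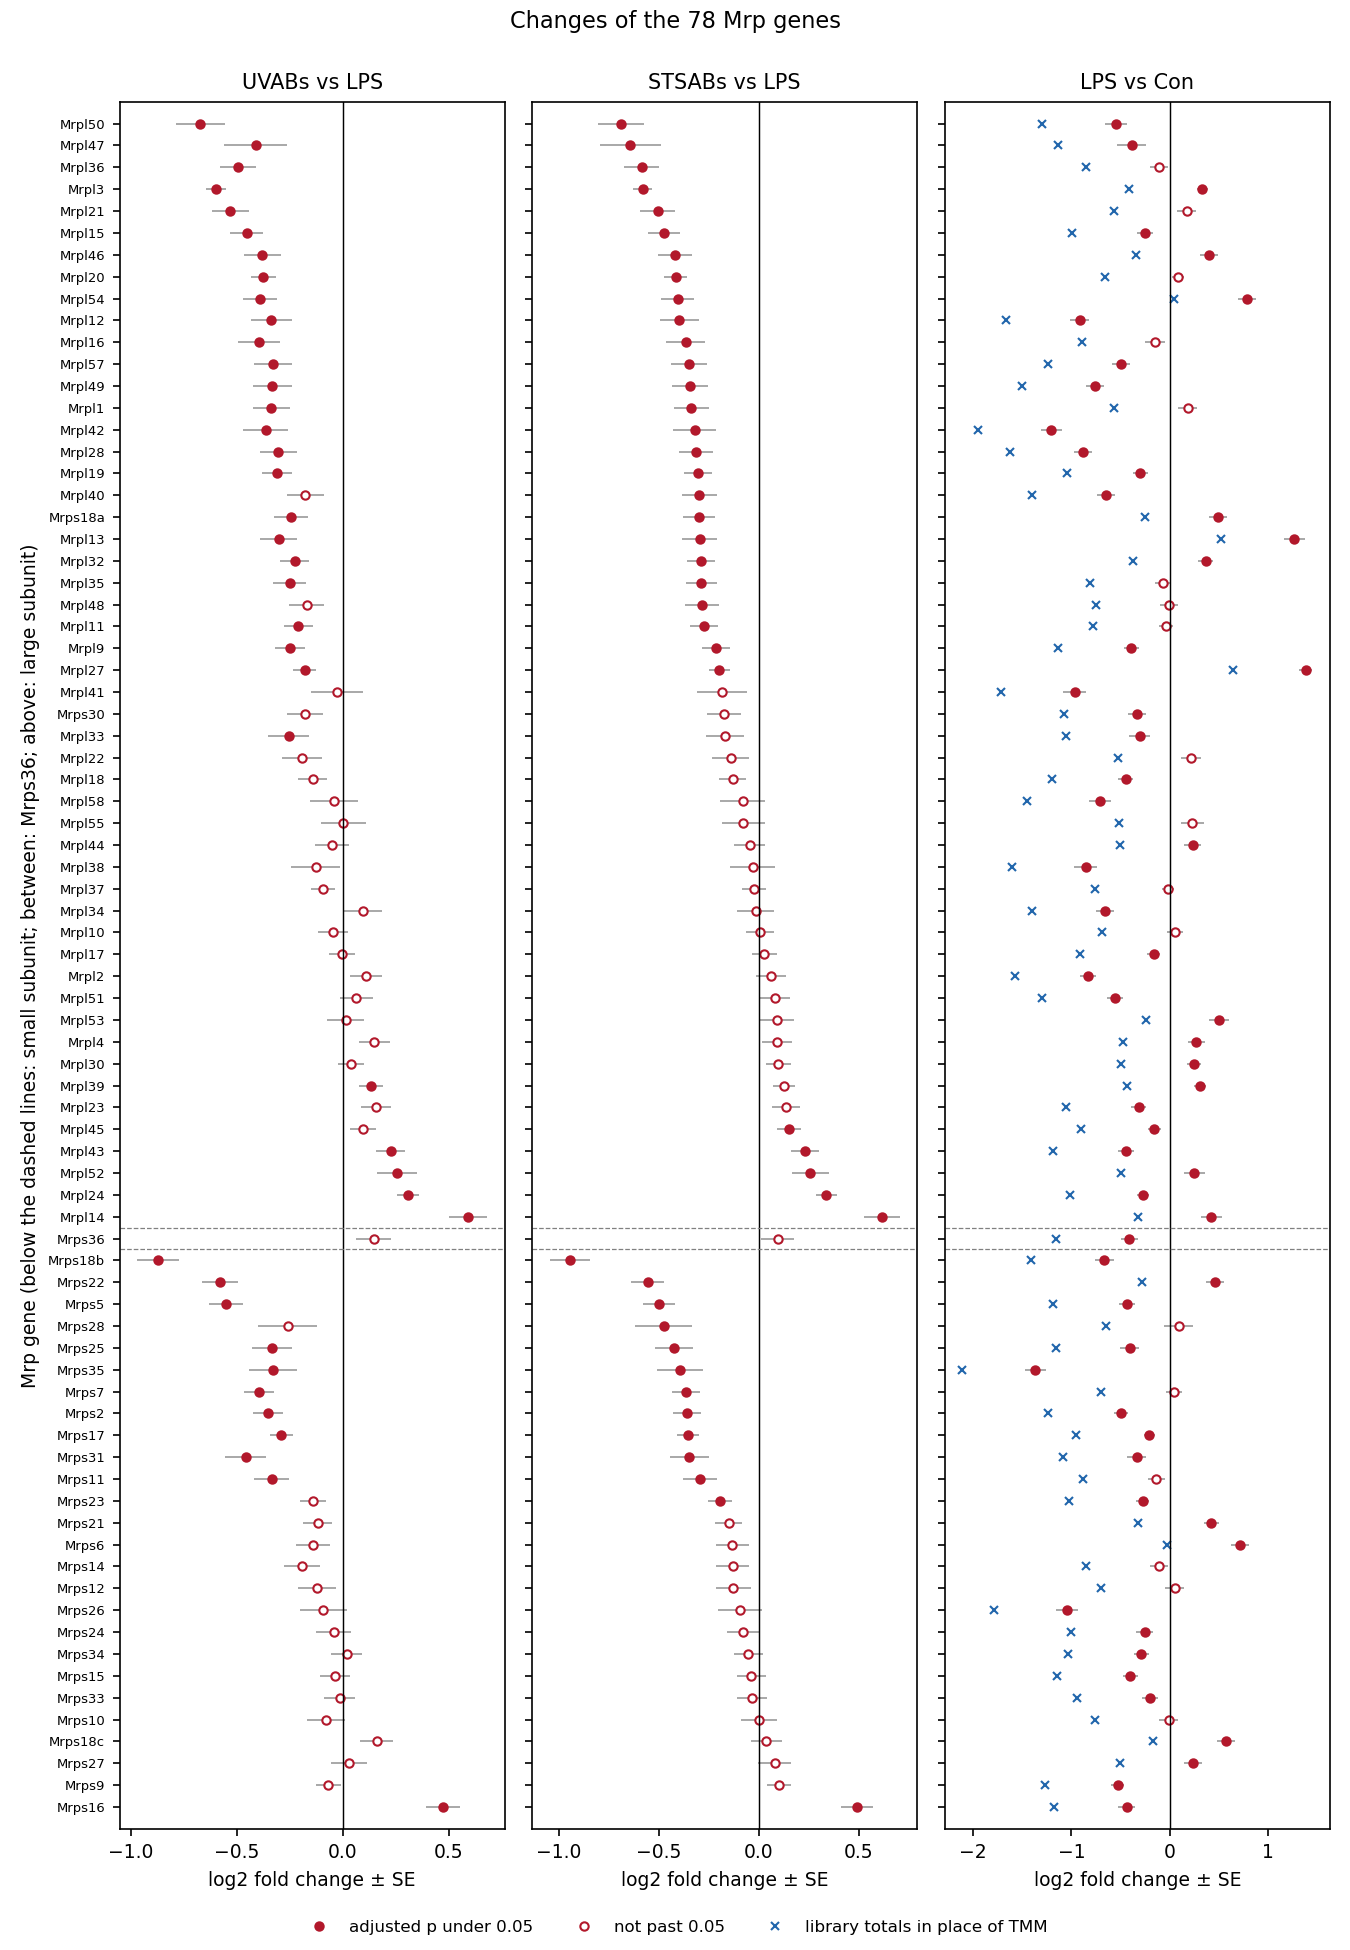
Log2 fold change ± SE of each of the 78 Mrp genes in UVABs against LPS, STSABs against LPS and LPS against Con, with genes ordered within each subunit by their change in STSABs. Filled circles passed adjusted p under 0.05 (35 lower and 6 higher in UVABs, 38 lower and 6 higher in STSABs, 41 lower and 19 higher in LPS), and crosses give LPS against Con scaled by library totals, where 73 were lower and 2 higher. With totals, 8802 of all 12465 genes were lower and 2365 higher in LPS against Con.

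**Figure D4:**
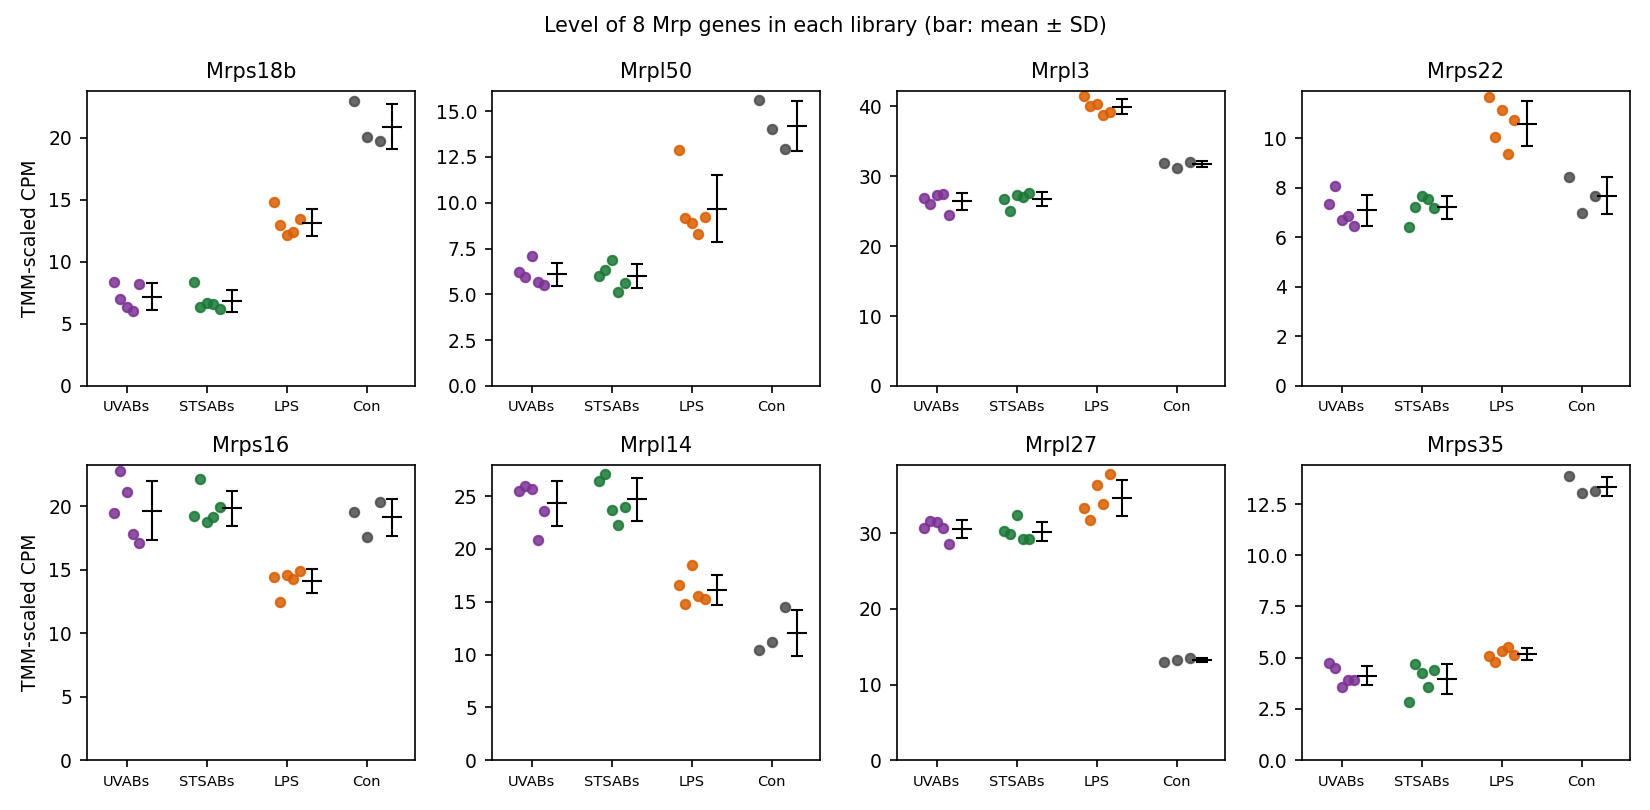
TMM-scaled CPM in each library for 8 Mrp genes, with 1 point per library and the mean ± SD beside the points. In Mrps18b, Mrpl50, Mrpl3 and Mrps22 all AB libraries lie below all LPS libraries, in Mrps16 and Mrpl14 all lie above them, and Mrpl27 and Mrps35 show the highest rise and the deepest fall in LPS against Con.

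The second question is whether bodies made with UV and with STS differed in their effect on these genes. No Mrp gene was called in UVABs against STSABs, and 0 of 12465 genes were called (0%), by edgeR, DESeq2 or limma-voom. At an unadjusted p under 0.05 there was 1 Mrp gene, Mrps9, and 198 genes in all (1.59%), a smaller share than this threshold gives by chance. The median log2 fold change of the Mrp genes was 0.01, with 42 above and 36 below 0. Differences ran from -0.17 ± 0.06 (Mrps9, 95% interval -0.29 to -0.05) to 0.23 ± 0.16 (Mrpl47, -0.08 to 0.54). For 77 of the 78 genes the 95% interval lay within 0.5 of 0 on the log2 scale, and for Mrpl47, the gene with the lowest count, it reached 0.54. These p-values and intervals come from the fit without the replicate number as a block. With that block no Mrp gene was called either. For Mrps18b the interval was -0.13 to 0.28 and for Mrpl14 -0.19 to 0.15. In no Mrp gene did the UVABs and STSABs libraries separate, against 0.345% of all genes.

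**Figure D5:**
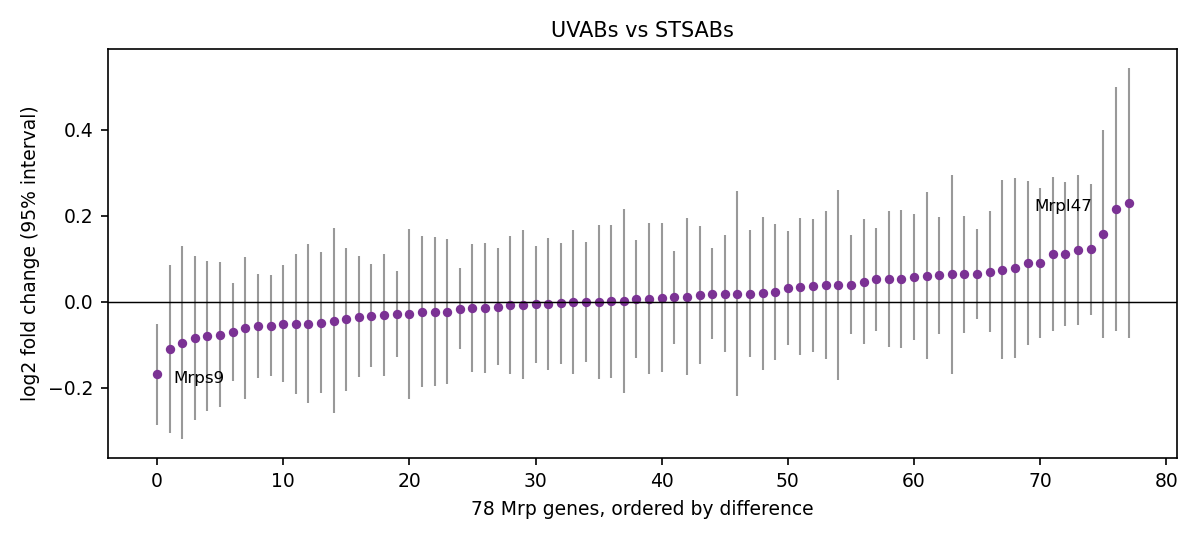
Log2 fold change of each of the 78 Mrp genes in UVABs against STSABs with its 95% interval, ordered by size. The points run from -0.17 (Mrps9) to 0.23 (Mrpl47).

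The third question is how LPS-treated macrophages differed from mock cells. Mrp genes went both ways with TMM scaling, 41 falling and 19 rising in LPS against Con, where 43.0% of all genes fell and 40.0% rose (83.0% called). Their median log2 fold change was -0.18, beside -0.03 for all genes. The size and part of the direction rest on the scaling. The counts of falls and rises were 38 and 20 with DESeq2 size factors, 54 and 7 with upper-quartile factors and 73 and 2 with library totals. Falls and rises of all 12465 genes were 5274 and 5075 with size factors and 6665 and 3754 with upper-quartile factors. With totals they were 8802 and 2365. All genes shifted too, with medians of -0.03, -0.02, -0.31 and -0.78 under TMM, size factors, upper-quartile factors and totals, and the Mrp median lay 0.15 below that of all genes under each of the 4. Mrpl27 and Mrpl13 were higher and 38 genes lower under all 4, while 15 were called higher under one and lower under another. Libraries did not overlap for 37 genes that were lower and 16 that were higher, where 41.7% and 38.4% of all genes did so.

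Mrpl27, the counterpart of bacterial L27 whose tail reaches the peptidyl transferase centre, had the largest rise. Its libraries had 33.3, 31.8, 36.3, 33.9 and 37.8 TMM-scaled CPM in LPS, against 12.96, 13.2 and 13.6 in Con. The groups were widely apart, and the log2 fold change was 1.38 ± 0.07 (adjusted p = 8e-15, edgeR) with TMM and 0.64 with library totals. In the AB groups it had 30.7, 31.6, 31.5, 30.7 and 28.6 in UVABs and 30.3, 29.9, 32.4, 29.3 and 29.2 in STSABs. Against LPS these were -0.18 ± 0.05 and -0.20 ± 0.05 (log2, called in both). Mrpl13, the counterpart of bacterial L13, had 40.9, 36.8, 36.2, 39.3 and 34.1 in LPS, against 17.4, 15.02 and 14.3 in Con. Every LPS library was above every Con library, with a log2 fold change of 1.27 ± 0.11 (adjusted p = 2.07e-10, edgeR), or 0.52 with library totals. In the AB groups it had 30.5, 27.6, 31.95, 31.3 and 30.7 in UVABs and 31.98, 22.7, 35.3, 32.5 and 30.3 in STSABs, with log2 fold changes against LPS of -0.30 ± 0.09 and -0.29 ± 0.09.

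Other rises did not hold under every scaling. Mrpl54, at the stalk base, had 18.97, 18.8, 21.7, 20.4 and 19.3 TMM-scaled CPM in LPS, against 11.2, 10.8 and 12.5 in Con. It rose by 0.78 ± 0.09 on the log2 scale with TMM and had 0.04 with library totals. Mrps6, the counterpart of bacterial S6, had 15.8, 13.6, 14.2, 12.1 and 13.99 in LPS, against 8.47, 8.52 and 8.46 in Con. Its log2 fold change was 0.72 ± 0.09 with TMM and -0.03 with totals, and it shares 159 exon bases on its own strand with Slc5a3, which had 0.73. Mrps21 had 0.42 with TMM and -0.32 with totals, Mrpl53 0.50 and -0.24, and Mrpl3 0.33 and -0.41. Mrps22 had 0.46 and -0.28. Mrpl44, which has the fold of an RNA-cutting enzyme, had 0.23 ± 0.09 (edgeR, adjusted p = 0.0182) with TMM and -0.51 with totals, and lost the call without Con replicate 2 (0.20) or LPS replicate 5 (0.20).

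The deepest falls held under all 4 scalings, among them those of Mrps35, Mrpl42 and Mrps26. Mrps35, a small subunit protein specific to mitochondria, had 5.09, 4.79, 5.33, 5.52 and 5.16 TMM-scaled CPM in LPS, against 13.9, 13.03 and 13.2 in Con. LPS libraries stood far below Con, with a log2 fold change of -1.37 ± 0.11 (adjusted p = 5.73e-11, edgeR). Its AB libraries were lower still, with 4.73, 4.49, 3.56, 3.90 and 3.94 in UVABs and 2.84, 4.68, 4.25, 3.57 and 4.41 in STSABs. Mrpl42 had 12.99, 11.03, 14.6, 12.01 and 10.6 in LPS, against 29.6, 26.7 and 28.3 in Con. The log2 fold change of this mitochondria-specific protein was -1.202 ± 0.11 (adjusted p = 6.08e-10, edgeR). Mrps26 had 7.24, 9.33, 8.95, 8.40 and 9.57 in LPS, against 18.7, 16.2 and 18.9 in Con, with a log2 fold change of -1.04 ± 0.11. Its AB libraries averaged 8.17 ± 1.35 in UVABs and 8.16 ± 0.866 in STSABs (SD, n = 5 each), at the level of LPS.

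Mrpl41 had 5.95 ± 0.905 TMM-scaled CPM in LPS and 11.6 ± 0.597 in Con (SD), a log2 fold change of -0.97 ± 0.12. Mrpl12, the stalk protein, had 15.1, 17.4, 13.6, 14.6 and 13.9 in LPS, against 29.5, 26.3 and 28.8 in Con. Among genes with a bacterial counterpart it had the largest fall, -0.92 ± 0.10 (adjusted p = 1.57e-08, edgeR). Mrpl28 changed by -0.88 ± 0.09, Mrpl38 by -0.86 ± 0.12 and Mrpl2, a core protein, by -0.83 ± 0.08 (log2). Mrpl58 changed by -0.71 ± 0.12, Mrps30 by -0.33 ± 0.09 and Mrps36 by -0.41 ± 0.09. Mrpl45 had -0.16 ± 0.07 (edgeR, adjusted p = 0.0366) and lost the call under the replicate block (-0.12) and without any 1 of Con replicates 1 and 2 and LPS replicates 2 and 5 (-0.15 to -0.13). Mrps12 did not pass, with 0.05 ± 0.10.

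By class, 25 of 51 large subunit genes fell and 14 rose, and 15 of 26 small subunit genes fell and 5 rose, in a comparison where 43.0% of all genes fell and 40.0% rose. No class was tested against these shares. Of the 46 genes with a bacterial counterpart 20 fell and 10 rose, and of the 31 specific to mitochondria 20 fell and 9 rose. Around the tunnel exit 4 of 5 fell and none rose. At the central protuberance 4 of 8 fell and 2 rose, and at the stalk 1 of 5 fell and 2 rose. Among the core genes 1 of 4 fell and 2 rose. The 15 genes called both ways across scalings are part of these counts.

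The 3 relatives of bacterial S18 differed from each other. They occur in separate places, Mrps18a in the large subunit, Mrps18b and Mrps18c in the small one. Mrps18a had 17.1, 20.7, 16.9, 16.1 and 17.2 TMM-scaled CPM in UVABs and 18.7, 13.6, 18.4, 16.9 and 17.3 in STSABs, against 19.8, 19.6, 20.6, 21.9 and 22.5 in LPS and 14.1, 15.5 and 14.8 in Con. Its mean was highest in LPS, with log2 fold changes of -0.24 ± 0.08 in UVABs and -0.30 ± 0.08 in STSABs against LPS, both lost with replicates 1 to 3 only (-0.13 and -0.24), and 0.49 ± 0.09 in LPS against Con (-0.25 with library totals). Mrps18c, the direct counterpart of S18, had 27.1, 27.6, 24.8, 24.8 and 21.8 in UVABs and 25.03, 20.4, 22.2, 25.3 and 22.97 in STSABs, against 23.8, 21.8, 23.3, 21.3 and 22.6 in LPS and 16.8, 12.96 and 15.8 in Con. It was higher in LPS than in Con, 0.57 ± 0.09 with TMM and -0.17 with totals, and did not pass in the AB groups against LPS (0.16 ± 0.08 and 0.04 ± 0.08). Mrps18b fell in both steps, -0.67 ± 0.10 in LPS against Con and the values above against LPS. Differences between the 3 genes were not tested.

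Against mock cells, the AB groups had more Mrp genes lower than higher. In UVABs 47 fell and 14 rose, and in STSABs 49 fell and 13 rose, where 42.4% and 42.6% of all genes fell and 40.2% and 40.0% rose (82.6% called in each). With library totals the rises numbered 3 in each, namely Mrpl13, Mrpl14 and Mrpl27, which were higher under all 4 scalings. Of all 12465 genes, 2504 rose in UVABs and 2510 in STSABs with totals. Median log2 fold changes were -0.29 in UVABs and -0.33 in STSABs. The largest falls were those of Mrps35 (-1.69 ± 0.11 and -1.76 ± 0.11), Mrps18b (-1.54 ± 0.10 and -1.61 ± 0.10) and Mrpl42 (-1.57 ± 0.11 and -1.52 ± 0.11). The largest rises were those of Mrpl27 (1.21 ± 0.07 and 1.19 ± 0.07), Mrpl14 (1.01 ± 0.10 and 1.04 ± 0.10) and Mrpl13 (0.97 ± 0.11 and 0.97 ± 0.11). With TMM, Mrpl24 and Mrps16 did not pass against Con, with 0.04 ± 0.06 and 0.04 ± 0.09 in UVABs and 0.07 ± 0.06 and 0.05 ± 0.09 in STSABs. Mrps22 did not pass either (-0.12 ± 0.09 and -0.09 ± 0.09). However, Mrpl24, Mrps16 and Mrps22 were each called lower than Con in both AB groups under 2 of the 4 scalings.

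Genes that serve the mitochondrial ribosome without being named for it were listed by role. Their counts stand beside the shares of all genes, of which 28.8% fell and 28.6% rose in UVABs against LPS, 29.0% and 28.4% in STSABs against LPS, and 43.0% and 40.0% in LPS against Con. Of 5 subunit genes under other symbols (Ptcd3, Dap3, Chchd1, Gadd45gip1 and Aurkaip1), 1 fell against LPS in each AB group. This was Ptcd3, a small subunit RNA-binding protein, with log2 fold changes of -0.87 ± 0.09 in UVABs and -0.76 ± 0.08 in STSABs. Of 32 assembly factors, 15 fell and 4 rose in UVABs, and 17 fell and 4 rose in STSABs, with median log2 fold changes of -0.15 and -0.20. The deepest calls were the RNA-binding proteins Fastkd2 (-0.99 ± 0.11 and -1.13 ± 0.11) and Fastkd5 (-0.91 ± 0.09 and -0.87 ± 0.09), the GTPase Noa1 (-0.99 ± 0.12 and -1.08 ± 0.12) and Rcc1l (-1.18 ± 0.15 and -1.27 ± 0.15). In LPS against Con 19 assembly factors fell and 7 rose with TMM, and 29 fell and 2 rose with library totals. With totals, 8802 of all 12465 genes fell and 2365 rose. Nsun4, an rRNA methyltransferase, rose by 1.73 ± 0.09 and Gtpbp6, a recycling GTPase, by 1.37 ± 0.10, while Rbfa, a factor of small subunit maturation, had -1.71 ± 0.10 (log2).

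Of 15 translation factors and their partners in the table, 4 fell and 4 rose in UVABs against LPS, and 5 fell and 3 rose in STSABs, which is near the shares of all genes. Lrpprc, which stabilises mitochondrial mRNA, had -0.64 ± 0.07 in UVABs and -0.65 ± 0.07 in STSABs, whereas its partner Slirp had 0.27 ± 0.05 and 0.29 ± 0.05 (log2, all called). Gfm1, an elongation factor, had -0.52 ± 0.07 and -0.48 ± 0.07. Lrpprc and Slirp also parted in LPS against Con, with -0.85 ± 0.08 and 1.498 ± 0.07. In that comparison 8 of the 15 fell and 4 rose with TMM, and 14 fell and 1 rose with library totals, where 8802 of all 12465 genes fell.

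Of 18 genes of mitochondrial transcription and RNA processing, 11 fell and 3 rose in UVABs against LPS, and 11 fell and 1 rose in STSABs, with a median log2 fold change of -0.26 in each. Polrmt, the mitochondrial RNA polymerase, had -0.83 ± 0.10 and -0.71 ± 0.10. Pnpt1, an RNA-degrading enzyme, had -0.43 ± 0.06 and -0.46 ± 0.06 against LPS and 2.47 ± 0.08 in LPS against Con (log2). Tfb2m, a transcription factor of mitochondrial DNA, had -1.13 ± 0.09 in LPS against Con, and Twnk, the helicase that overlaps Mrpl43 on the opposite strand by 507 exon bases, had -1.76 ± 0.13.

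Of 9 tested regulators of nuclear genes for mitochondria, 3 fell and none rose in either AB group against LPS, the falls being near the share of all genes. Pprc1, a coactivator related to PGC-1alpha, had the largest change, -1.63 ± 0.09 in UVABs and -1.53 ± 0.09 in STSABs. Gabpa, which encodes the subunit of GABP that binds the ETS motif, had -0.33 ± 0.09 and -0.32 ± 0.09, and Gabpb2, for a partner subunit, -0.27 ± 0.07 and -0.32 ± 0.07. In LPS against Con 5 fell and 4 rose with TMM, among them the coactivator Ppargc1b (-4.06 ± 0.20), Myc (-1.67 ± 0.09), Yy1 (-0.57 ± 0.05) and Gabpb1 (0.92 ± 0.07), and 8 fell and 1 rose with library totals. Totals also made 8802 of all 12465 genes fall.

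Reads of neighbouring genes could bear on some values. By the GENCODE M21 annotation, 33 of the 78 genes share exon bases with another annotated gene, 28 of them on the opposite strand and 8 on the same strand, and no source used here names the strand setting of the counting. Among the 45 genes that share none, 19 fell and 3 rose in UVABs against LPS, 22 fell and 3 rose in STSABs, and 24 fell and 9 rose in LPS against Con. Among the 33 that do, these numbers were 16 and 3, 16 and 3, and 17 and 10. Mrpl53 shares 88.0% of its exon bases with Gm42688 and Mrps18c 23.2% with Gm43511, on the same strand. Mrps18b shares 30.5% with Gm16279 on the opposite strand, and none of these partners passed the filter. Mrpl27 and Mrpl13 overlap Eme1 and Mtbp on the opposite strand, which fell in LPS against Con (-0.60 and -0.32, log2). The part of shared reads was not tested.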

How the data were processed

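Per the labels' protocols, poly(A) RNA was selected with oligo(dT) beads and made into dUTP libraries for paired-end Illumina sequencing. HISAT2 and mm39 are named in the submitters' processing notes, while the counting tool, strand setting and annotation are stated nowhere in what was used here. The authors deposited estimated counts for 16909 gene symbols, not normalized, and 6.35% of the values were not whole numbers. No column was left unused.

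Counts were rounded, filtered with filterByExpr by group (12465 genes, 99.97% of counts), scaled by TMM and tested with edgeR 4.0.16 (R 4.3.3), with 1 mean per group over all 18 libraries, 6 contrasts and Benjamini-Hochberg adjustment at 0.05. SE is the size of the log2 fold change over the root of the test's F, and intervals are 1.96 SE either way. DESeq2 1.42.0 and limma-voom (limma 3.58.1) were alternative tests. Other alternatives were size factors, upper-quartile factors and library totals, no filter and a filter of 5 CPM in at least 3 libraries, fits of the compared groups, of replicates 1 to 3 and without replicate 2 of both AB groups, each library left out, and the replicate number as a block.

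Same-numbered UVABs and STSABs libraries deviated together to some degree, with correlations of 0.116, 0.540, 0.129, 0.288 and 0.137 for numbers 1 to 5. Among unlike-numbered pairs of these groups, UVABs 4 and STSABs 5 had 0.154 and UVABs 5 and STSABs 4 had 0.142. All other unlike-numbered pairs lay below the lowest same-numbered one, down to -0.346 for UVABs 4 and STSABs 2. No label says that the numbers pair libraries, so pairing remains unknown. Over genes with at least 20 counts in a pair, replicates of 1 group differed by more than sampling noise. Chi-square per degree of freedom was 2.30 or more, where sampling noise alone gives about 1. Replicate 2 of both AB groups stood furthest from its group, at 19.8 to 33.4. Over the Mrp genes the value ran from 1.05 (LPS 2 and 5) to 3.73 (Con 1 and 3).

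The members, lists, roles and tests were chosen with earlier results of these data known. In each comparison the genes named are a panel of 12, the 8 largest changes in each direction among called genes with at least 5 CPM and no overlap, called genes against the main direction, and up to 4 of a list by adjusted p. Genes given to extend a sentence, such as Mrpl47 and Mrps9, were chosen after their values were seen. Exon lengths and overlaps are from GENCODE M21, another build than that of the counts, so positions are given only for RefSeq promoters. Figures were drawn with matplotlib 3.10.9.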

Additional observations from a re-analysis of the deposited data

Results flagged for a closer look

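A library stood far from the other 4 of its group, by Dixon's test at the 95% level, in 4 of 120 tests (chance flags about 1 in 20 groups). The tests took in the 37 named Mrp genes and the library-level share and ratios of Mrp counts. All flags fell on genes. Mrps18a had 20.7 TMM-scaled CPM in UVABs replicate 2, where the other UVABs libraries had 16.1 to 17.2. Mrps18b had 8.34 in STSABs replicate 1, where the others had 6.17 to 6.65. In LPS, Mrpl50 had 12.9 in replicate 1, where the others had 8.28 to 9.21, and Mrps16 had 12.5 in replicate 2, where the others had 14.3 to 14.9. The calls of Mrps18b, Mrpl50 and Mrps16 against LPS held without each of these libraries, and so did that of Mrps18a in UVABs against LPS (-0.31). Against Con, the rise of Mrps18a in UVABs lost the call without UVABs replicate 2 (0.18, adjusted p = 0.0542, edgeR), and STSABs against Con gained one (0.196, adjusted p = 0.0314, against 0.0516 with all libraries).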

How the results depend on the processing

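No count moved by over 1.5 times under other tests, filters, subsets of libraries or DESeq2 size factors. With library totals, whose construction lets the Con factor of 1.51 go, the counts of higher and lower Mrp genes in LPS against Con were 2 and 73, the higher ones numbered 10 in STSABs against LPS and 3 in each AB group against Con, and 71 were lower in UVABs against Con. Of all 12465 genes, 2365 were higher and 8802 lower in LPS against Con with totals, and 3984 were higher in STSABs against LPS. Against Con, totals gave 2504 higher and 8523 lower genes in UVABs and 2510 higher in STSABs. With upper-quartile factors 7 Mrp genes were higher in LPS against Con and 8 in each AB group against Con. The higher genes in all were then 3754 in LPS, 3836 in UVABs and 3822 in STSABs. Of all 78 genes, the log2 fold changes of 25 in LPS against Con and of 18 in each AB group against Con turned negative with totals, and those of 14 in LPS, 10 in UVABs and 8 in STSABs with upper-quartile factors. Among the genes named for each comparison, and called with TMM or with the other scaling, those that turned with totals in LPS against Con were Mrpl3 (-0.41), Mrpl44 (-0.51), Mrpl53 (-0.24), Mrps12 (-0.69), Mrps18a (-0.25), Mrps18c (-0.17), Mrps21 (-0.32), Mrps22 (-0.28) and Mrps6 (-0.027). In UVABs against Con they were Mrpl39 (-0.26), Mrpl4 (-0.28), Mrpl44 (-0.52), Mrpl52 (-0.20), Mrpl53 (-0.19), Mrps18a (-0.46) and Mrps6 (-0.13). In STSABs against Con they were Mrpl30 (-0.35), Mrpl39 (-0.26), Mrpl44 (-0.51), Mrpl52 (-0.19), Mrpl53 (-0.10), Mrps18a (-0.50), Mrps18c (-0.086) and Mrps6 (-0.11). With upper-quartile factors Mrpl44 (-0.043) and Mrps12 (-0.23) turned among these in LPS against Con and Mrps18a (-0.019) in UVABs against Con.

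Leaving out each library in turn, falls and rises numbered 33 to 38 and 4 to 7 in UVABs against LPS, 37 to 41 and 4 to 7 in STSABs against LPS, and 34 to 41 and 16 to 20 in LPS against Con. They numbered 44 to 49 and 13 to 15 in UVABs against Con, 45 to 50 and 13 to 15 in STSABs against Con, and 0 in UVABs against STSABs. Without replicate 2 of both AB groups they were 39 and 6 in UVABs and 39 and 7 in STSABs against LPS. The replicate block gave 38 falls and 7 rises in UVABs against LPS, 39 and 6 in STSABs against LPS, 38 and 23 in LPS against Con, and 0 in UVABs against STSABs, also in a fit of the AB groups alone that was added after seeing the data. Of the named genes it changed 1 call, that of Mrpl45 in LPS against Con. Counts of 32 to 1219 per gene and library limit small differences most in Mrpl47.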
